A study of Mus musculus with 12 samples.

Results

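The transition from NGN3+ to KIT+ spermatogonia was examined in germ cells of a single reporter line, by setting the 3 arrays of sorted KIT+ cells against the 3 arrays of sorted NGN3+ cells, which are 6 of the 12 arrays of the series. Both fractions came from adult Ngn3-EGFP mice on a C57BL/6 background aged 10 to 11 weeks, in which EGFP is driven by regulatory sequence of the Neurog3 gene. The KIT+ fraction was EGFP-positive and KIT-positive, and the NGN3+ fraction was EGFP-positive and KIT-negative, so that EGFP was present in both and surface KIT protein alone divided them. Each KIT+ sample came from 1 mouse and each NGN3+ sample from 2 mice that were pooled. Sorting gave 10000 to 20000 cells a sample, of which 25 ng of total RNA entered the labelling. The mice had received no treatment that the labels give. GFRα1+ cells (EGFP-positive cells of Gfra1-EGFP mice) and whole testes of wild-type littermates of that line, with 3 arrays each, are given only as levels beside the comparison. Because KIT protein set the gate, the Kit transcript checks the sort and is no finding.

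In the adult mouse testis, spermatogonia that express the GDNF receptor GFRα1 hold the stem cell activity, and they give rise to NGN3+ cells, which still can revert but mostly go on to differentiate. Retinoic acid (RA) then drives NGN3+ cells into KIT+ differentiating spermatogonia, which divide in a fixed series of synchronized mitoses before meiosis. The KIT receptor tyrosine kinase is required for the survival and proliferation of these cells.

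Levels are on a log2 scale on which 0 is the 75th percentile of an array's values over all probes of the deposited table, and a log2 ratio is the mean KIT+ level minus the mean NGN3+ level, so that a positive ratio means more signal in KIT+ cells. A level describes 1 probe and is not compared between genes. Of 36315 gene names on the array, 24119 were tested, namely those whose probe was well above background, by the scanner's flag, on all 3 arrays of at least one fraction, and 21988 of them were so on all 6 arrays. A gene was called higher or lower when its adjusted p from limma was below 0.05. The 6 arrays lay on the same slide, the NGN3+ arrays in its first row and the KIT+ arrays in its second, so row and fraction cannot be told apart. GFRα1+ replicate 3 lay there too. The other GFRα1+ and all whole testis arrays lay on other slides, so their levels can differ by slide as well. Added control RNA (spike-in) lay 0.63 to 1.29 log2 units above the 75th percentile on GFRα1+ arrays and 0.41 to 0.92 in whole testes. On the 6 arrays it was at −0.87 to −0.62. The whole testis samples held more cells than the sorted ones. Among the 8530 genes called, NGN3+ replicate 3 was the NGN3+ array nearest to the KIT+ mean for 67.7%, and replicate 1 was the farthest for 58.7%.

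Transcripts listed as markers of other testis cells were present in both fractions. The summed signal of the 39 spermatid genes on the array, with the 75th percentile set to 1, was 1645 to 2133 on NGN3+ arrays and 2030 to 2679 on KIT+ arrays, against 57.7 to 101 on GFRα1+ arrays and 9551 to 11413 in whole testes. Prm1, which encodes a protamine that packs sperm DNA, stood at 8.93, 9.04 and 8.78 on NGN3+ arrays and at 9.13, 9.11 and 9.06 on KIT+ arrays (log2 ratio 0.18, adjusted p = 0.266). The log2 ratios of the 39 spermatid genes ran from 0.15 to 0.61, with a median of 0.39 against 0.05 over all genes tested, and 1 was called, Fndc3a (log2 ratio 0.45, adjusted p = 0.0453). That call was lost without NGN3+ replicate 1 (log2 ratio 0.38) or 2 (0.41) and without KIT+ replicate 1 (0.52), 2 (0.45) or 3 (0.38). Sertoli genes summed to 108 to 150 on NGN3+ and 109 to 133 on KIT+ arrays, against 581 to 693 in whole testes, with 4 of 23 tested higher (2 without NGN3+ replicate 2 or 3 or KIT+ replicate 2 or 3) and 4 lower, close to the 17.8% and 17.5% over all genes tested. Of the genes that define Sertoli cells, Sox9 and Wt1 were well above background on all 6 arrays (log2 ratios −0.20, adjusted p = 0.401, and −0.83, adjusted p = 0.00197), and Amh on none of the 12, whole testes included. Mean levels of Sox9 were −3.86 on NGN3+, −4.06 on KIT+ and −1.31 on whole testis arrays, and those of Wt1 1.72, 0.89 and 2.80. Leydig cell genes summed to 9.02 to 10.7 on NGN3+ and 13.7 to 16.1 on KIT+ arrays, against 58.1 to 96.2 in whole testes. Of 7 tested 2 were called, both higher (28.6%), Scarb1 (log2 ratio 0.57) and Fabp3 (1.30). Leukocyte genes summed to 13.8 to 18.9 and 12.6 to 17.7 (whole testes 73.1 to 97.7), and red cell genes to 1.20 to 1.65 and 1.31 to 3.80 (whole testes 26.0 to 34.2). The globin genes Hba-a1, Hbb-bt and Hbb-b2 were well above background on 2, 0 and 0 NGN3+ arrays and on 2, 1 and 0 KIT+ arrays, Hba-a1 being highest on KIT+ replicate 3 (−1.25). Alas2, the heme synthesis gene of red cells, was higher in KIT+ cells (log2 ratio 0.66, adjusted p = 0.0138), a call lost without KIT+ replicate 3.

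Part of the markers of the peritubular wall and of vessels were lower in KIT+ cells, although the summed signals of NGN3+ replicate 3 lay within the KIT+ range. Peritubular myoid genes summed to 23.7 to 37.6 on NGN3+ and 20.8 to 25.3 on KIT+ arrays, against 177 to 199 in whole testes. Of the 13 tested 8 were lower (61.5%) and 1 higher (7.69%), against 17.5% and 17.8% over all genes tested. Smooth muscle actin Acta2 stood at 1.38, 1.96 and 0.00 on NGN3+ arrays and −0.66, −0.93 and −1.78 on KIT+ arrays, a log2 ratio of −2.24 (adjusted p = 0.0144) that did not pass without NGN3+ replicate 1 (−2.10). The smooth muscle myosin gene Myh11 had a log2 ratio of −2.26 (adjusted p = 0.0225, above background on 2 of 3 KIT+ arrays), which did not pass without NGN3+ replicate 1 (−2.09) or 2 (−1.92). Without NGN3+ replicate 1 or 2, 4 and 5 of the myoid genes were lower. Endothelial genes summed to 6.64 to 13.1 on NGN3+ and 6.37 to 6.65 on KIT+ arrays. Their sums were 15.9 to 20.7 on GFRα1+ arrays and 26.3 to 31.9 in whole testes. Mean levels of Pecam1 were −2.76 on NGN3+, −3.32 on KIT+, −2.80 on GFRα1+ and −2.72 on whole testis arrays. Those of Cdh5 were −2.06, −4.07, −2.02 and −1.37 in the same order. Of 13 endothelial genes tested 5 were lower (38.5%), 1 was higher (7.69%) and 7 were not called. The lower genes included the vascular cadherin Cdh5 (log2 ratio −2.01, adjusted p = 0.00157, above background on 2 of 3 KIT+ arrays), and 10 were lower without NGN3+ replicate 3 and 3 without KIT+ replicate 3. The part of these cells in the results below was not tested. As the samples are bulk RNA, fewer cells of a type, less RNA per cell and expression by the sorted cells themselves cannot be told apart.

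**Figure D1:**
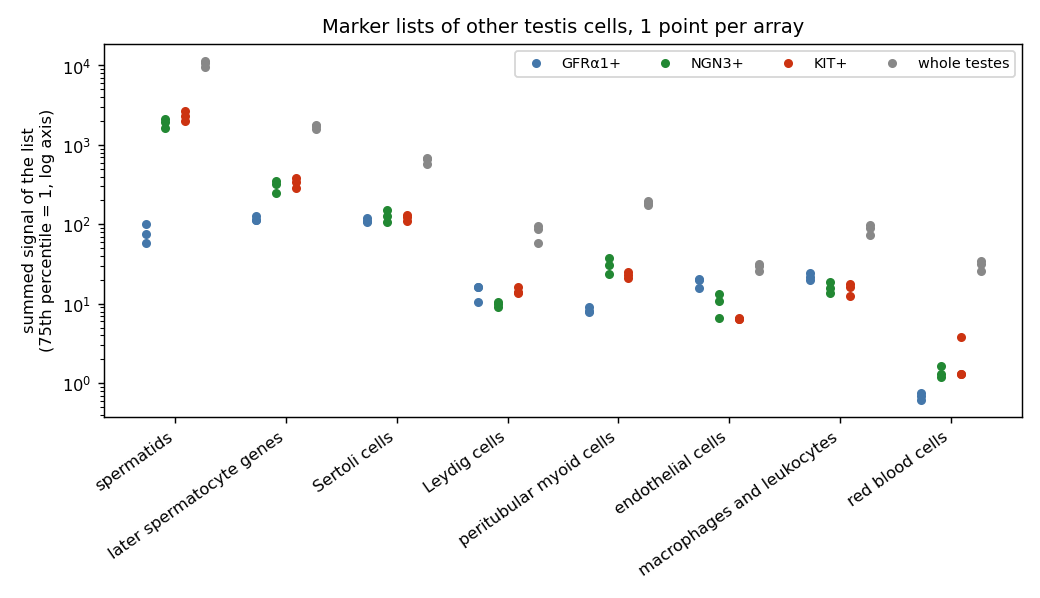
Summed signal (vertical axis, log scale, 75th percentile of an array = 1) of the marker lists of other testis cells (horizontal axis), with 1 point per array in 4 groups of 3. Spermatid signal on NGN3+ and KIT+ arrays lay at 1645 to 2679, between that of GFRα1+ cells and that of whole testes.

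KIT+ and NGN3+ cells differed in 8530 of 24119 genes tested, or 35.4%. In KIT+ cells 4301 genes were higher, which is 17.8% of those tested, and 4229 were lower, which is 17.5%. The higher count was 2607 without NGN3+ replicate 2 and 2781 without KIT+ replicate 3, and leaving out each array in turn gave 3007 to 3996 lower genes. The fractions did not overlap in 12110 of the genes tested and in 8521 of the 8530 called, so that a lack of overlap adds little to a call. The numbers were alike in both directions but the sizes were not. Of the genes higher in KIT+ cells 922 had a log2 ratio beyond 1, 81 beyond 2 and 3 beyond 3, whereas of the lower genes 1882 were beyond −1, 574 beyond −2 and 138 beyond −3. The median log2 ratio was 0.67 over the higher and −0.91 over the lower genes, and 0.05 over all genes tested. Restricted to genes above background on all 6 arrays, 789 rose and 1362 fell beyond a log2 ratio of 1 in size.

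**Figure D2:**
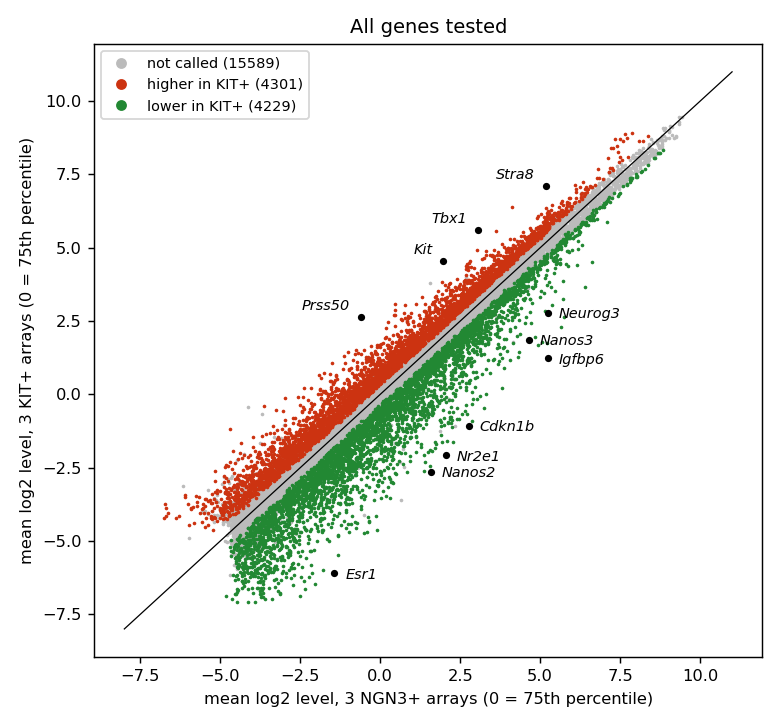
Mean log2 level of each of the 24119 genes tested on 3 NGN3+ arrays (horizontal axis) and 3 KIT+ arrays (vertical axis), 0 being an array's 75th percentile, with the line of equal levels. The cloud reaches further below the line (lower in KIT+ cells, 138 genes beyond −3) than above it (3 genes beyond 3).

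Of the 4 genes chosen to mark the transition, Kit checks the sort and the other 3 differed. Kit stood at 1.48, 1.83 and 2.60 on NGN3+ arrays and at 4.46, 4.68 and 4.52 on KIT+ arrays, and its log2 ratio was 2.58 (SE 0.27). Stra8, an RA-induced gene of differentiation and meiotic entry, stood at 4.91, 4.92 and 5.72 on NGN3+ arrays and at 7.07, 7.28 and 6.92 on KIT+ arrays. For both, every KIT+ array lay above every NGN3+ array, and NGN3+ replicate 3 was the highest of its fraction. Stra8 rose by 1.91 (SE 0.24, adjusted p = 0.00125).

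Nanos2, an RNA-binding repressor that keeps spermatogonia undifferentiated, stood at 1.88, 1.55 and 1.34 on NGN3+ arrays and at −2.33, −2.53 and −3.06 on KIT+ arrays. Its log2 ratio of −4.23 (SE 0.22, adjusted p = 0.000147) was the largest fall among genes above background on all 6 arrays that have a RefSeq symbol. Its relative Nanos3 stood at 4.65 ± 0.36 (SD, n = 3) on NGN3+ arrays, the lowest being 4.27, against 1.97, 1.97 and 1.67 on KIT+ arrays, a log2 ratio of −2.78 (SE 0.20, adjusted p = 0.0002). The fractions were apart for both genes, with NGN3+ replicate 3 the lowest of its fraction. An exact two-sided permutation test over 3 against 3 arrays cannot go below p = 0.1, and it gave 0.1 for each of Stra8, Nanos2 and Nanos3.

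**Figure D3:**
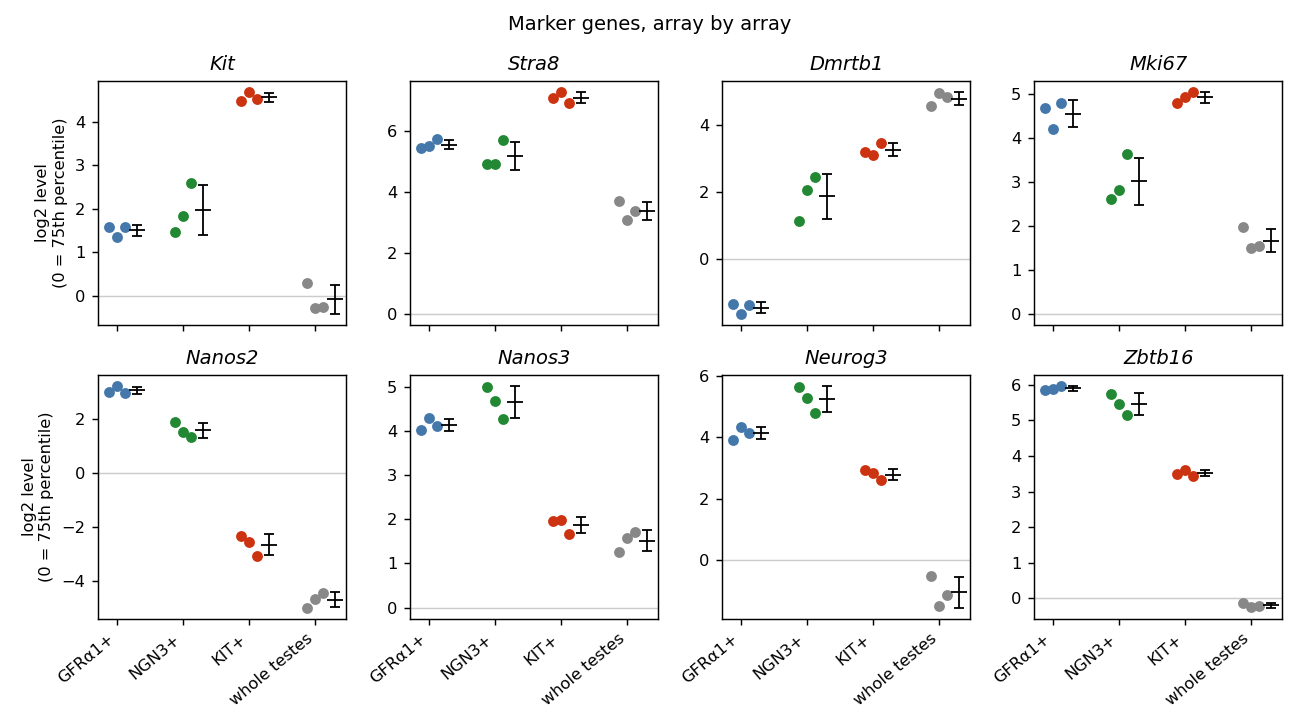
Log2 level (vertical axis, 0 is an array's 75th percentile) of 8 genes, 4 that rose (top) and 4 that fell (bottom) from NGN3+ to KIT+ cells, in the 4 groups (horizontal axis), with 1 point per array and a bar for the mean and SD of 3 arrays. NGN3+ and KIT+ arrays do not overlap in any panel, for example 1.34 to 1.88 against −3.06 to −2.33 for Nanos2.

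The undifferentiated program was lower in KIT+ cells. Of 43 genes of undifferentiated spermatogonia and of the response to GDNF, the niche factor that sustains them, 36 were tested. Of these 26 were lower (72.2%) and 4 higher (11.1%), against 17.5% and 17.8% over all genes tested. The list had a median log2 ratio of −1.35 against 0.05 over all genes. Ret, the signalling chain of the GDNF receptor, stood at 0.27, −0.18 and −0.44 on NGN3+ arrays and at −3.69, −4.05 and −4.68 on KIT+ arrays (log2 ratio −4.02, adjusted p = 0.000194), where 1 of 3 arrays was well above background. Gfra1, the ligand-binding chain, stood at −0.96, −1.39 and −1.29 against −3.32, −3.41 and −3.40 (log2 ratio −2.16, adjusted p = 0.000164). Both chains were lower on every KIT+ array than on any NGN3+ array.

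GDNF-responsive transcription factors and signalling genes moved with the receptor. Etv5, Bcl6b and Id4 had log2 ratios of −2.24, −2.02 and −2.47, and Tcl1, a cofactor of AKT, and Dusp6, a phosphatase of ERK, had −3.31 and −3.07. Zbtb16, the zinc finger repressor also called PLZF, stood at 5.75, 5.45 and 5.15 in NGN3+ cells and at 3.50, 3.61 and 3.43 in KIT+ cells (log2 ratio −1.94, adjusted p = 0.000352). Pou5f1 (OCT4) and the RNA-binding protein gene Lin28a had log2 ratios of −1.90 and −1.65. The exceptions that rose were Id2 (−3.53, −3.05 and −3.07 against −1.22, −1.20 and −1.24, a rise of 3.99-fold), and, by their log2 ratios, Epcam (1.10), Id1 (0.79) and Plvap (0.78). Id2 and Id1 encode inhibitors of basic helix-loop-helix factors, as Id4 does. Id3, of the same family and chosen after its values were seen, had a log2 ratio of −1.55. Surface proteins used to enrich stem cells were lower too, with log2 ratios of −1.23 for Thy1, −1.04 for Cd9 and −1.02 for Itga6.

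Genes listed for the NGN3 state were lower as well, in a list chosen, like the others, with earlier results of these data known. Of 15 such genes 14 were tested, 10 were lower (71.4%) and 1 was higher (7.14%), and their median log2 ratio was −1.84. The shares over all genes tested were 17.5% lower and 17.8% higher. Neurog3, a basic helix-loop-helix factor, stood at 5.64, 5.28 and 4.79 on NGN3+ arrays and at 2.92, 2.82 and 2.60 on KIT+ arrays (log2 ratio −2.45, SE 0.22, adjusted p = 0.000401), and its dimmer probe had a log2 ratio of −1.33. Neurog3 in KIT+ cells was above its level in whole testes (mean −1.05). The transcription factors Foxf1 and Glis3 had log2 ratios of −3.67 and −3.41, the stress-regulated mTORC1 inhibitor Ddit4 −3.10, the uridine phosphorylase gene Upp1 −2.99, and Piwil4, a nuclear partner of piRNAs in fetal germ cells, −2.12. Sox3, on the X chromosome, changed less (log2 ratio −0.98, adjusted p = 0.0052). The member that rose, Magea4, was not well above background on any NGN3+ array and was at least 2.41-fold higher in KIT+ cells (adjusted p = 0.011). Sohlh1, a helix-loop-helix factor needed for differentiation, was at 6.70, 6.33 and 6.18 against 5.88, 6.15 and 5.74, a ratio of −0.48 that did not pass (adjusted p = 0.076).

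The 15 largest falls by the naming rule were Nanos2, Nr2e1, Igfbp6, Six4, Sntg2, Gm8364, Pgm5, Gbp2, Slc9b2, Cdkn1b, Cxcl12, Ly6g6e, Ptch1, Foxf1 and Rin2, with log2 ratios of −4.23 to −3.66. Nr2e1, an orphan nuclear receptor known from neural stem cells, stood at 2.43, 1.93 and 1.79 on NGN3+ arrays and at −2.22, −1.92 and −2.08 on KIT+ arrays. Igfbp6, which binds insulin-like growth factors, stood at 5.66, 5.24 and 4.86 against 1.46, 1.10 and 1.13. The homeobox gene Six4 stood at 1.91, 1.40 and 1.32 against −2.37, −2.54 and −2.42. In these 3 genes the fractions were separated by more than 3 log2 units, with adjusted p of 0.000147 to 0.000148.

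Some genes were lost below background in KIT+ cells. Fli1, an ETS factor, was at least 12.4-fold lower, and the estrogen receptor gene Esr1 was at least 11.8-fold lower, with none of the 3 KIT+ arrays well above background. Esr1 stood at −1.19, −1.48 and −1.62 on NGN3+ arrays, and its other 2 probes were also called lower, with log2 ratios of −4.17 and −1.15, the last on a probe that 1 of 3 KIT+ arrays measured above background. Fam169b, Asb13, Gm13361, Hoxb3, Gm2137, the oncostatin M receptor gene Osmr, Gm4841 and Gm8144 completed the 10 largest such falls, with bounds down to 6.28-fold. In the other direction bounds were smaller, the largest being 3.69-fold for Prom2, followed by Gdpd2, Map2, which encodes a microtubule-associated protein, the Nodal antagonist Lefty1, and the phosphodiesterase gene Pde8b (2.57-fold).

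**Figure D4:**
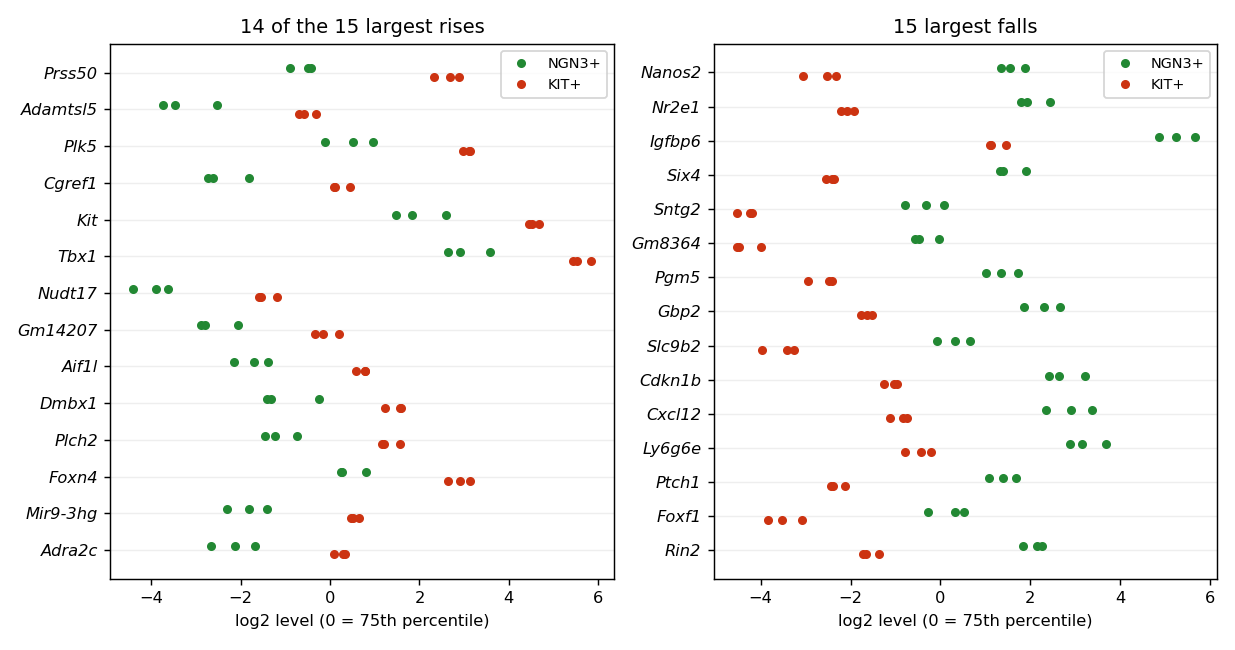
Log2 level (horizontal axis, 0 is an array's 75th percentile) of 14 of the 15 largest rises (left) and the 15 largest falls (right) from NGN3+ to KIT+ cells among genes above background on all 6 arrays, with 1 point per array. The fractions do not overlap, which the naming rule requires, and the falls (−4.23 to −3.66) exceed the rises (2.39 to 3.24).

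Among the 15 largest rises were Prss50, Adamtsl5, Plk5, Cgref1, Kit (set by the gate), Tbx1, Nudt17, Gm14207, Aif1l, Dmbx1, Plch2, Foxn4, Mir9-3hg and Adra2c, with log2 ratios of 3.24 to 2.39. Prss50, a testis protease, stood at −0.90, −0.49 and −0.43 on NGN3+ arrays and at 2.32, 2.69 and 2.89 on KIT+ arrays (adjusted p = 0.00016), and its other probe gave a log2 ratio of 3.19. Tbx1, a T-box transcription factor, stood at 2.64, 2.91 and 3.59 against 5.43, 5.84 and 5.52 (log2 ratio 2.55). Plk5, of the polo-like kinase family, stood at −0.12, 0.51 and 0.96 against 2.97, 3.13 and 3.10 (2.62), and the forkhead gene Foxn4 at 0.28, 0.25 and 0.81 against 2.90, 3.14 and 2.64 (2.45). NGN3+ replicate 3 was the NGN3+ array nearest to the KIT+ values in each of these 4 genes.

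Genes of differentiating spermatogonia rose as a group. Of 28 listed, all tested, 19 were higher (67.9%), Kit among them, and 4 lower (14.3%), against 17.8% and 17.5% over all genes tested. The list had a median log2 ratio of 0.87. Cited1, a transcriptional coactivator on the X chromosome, stood at 3.80, 4.04 and 4.56 on NGN3+ arrays and at 6.26, 6.62 and 6.33 on KIT+ arrays (log2 ratio 2.27, adjusted p = 0.000449). The X-linked homeobox genes Esx1 and Rhox13 rose by 1.92 and 1.57, the zinc finger gene Ovol1 by 1.49 and the RA-binding protein gene Crabp1 by 1.45. Dmrtb1 stood at 1.15, 2.05 and 2.46 against 3.21, 3.11 and 3.48 (log2 ratio 1.38, adjusted p = 0.0145), a call lost without KIT+ replicate 3 (1.27). The helix-loop-helix gene Sohlh2 rose by 0.58, which did not pass without NGN3+ replicate 2 (0.49). The 4 lower members were Ccnd2 (−0.72), Dnmt3a (−0.70), Tdrd1 (−0.60) and Nxf2 (−0.49). Ccnd2 did not pass without NGN3+ replicate 1 (−0.62) or KIT+ replicate 3 (−0.57), Nxf2 did not pass when any array other than NGN3+ replicate 3 was left out (−0.53 to −0.38), and 2 of the 4 were lower without NGN3+ replicate 1 or KIT+ replicate 3.

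Among RA receptors, Rarg was lower in KIT+ cells (log2 ratio −1.15) and Rarb higher (1.64), while Rara was at −0.14 (adjusted p = 0.548). Of 27 tested genes of RA metabolism and binding 10 were higher (37.0%) and 2 lower (7.41%), against 17.8% and 17.5% over all genes tested. Without NGN3+ replicate 3, 4 were lower. The RA-degrading enzyme gene Cyp26b1 stood at 0.12, 0.30 and 0.13 on NGN3+ arrays and at 1.92, 2.04 and 1.95 on KIT+ arrays (log2 ratio 1.78, adjusted p = 0.00016). Of 35 tested genes listed as RA targets, 15 were higher (42.9%), Kit among them, and 10 lower (28.6%), so the list did not move one way. Without KIT+ replicate 3, 6 of them were lower. The lower targets included Ret and the homeobox gene Hoxb4, which stood at 1.54, 1.31 and 1.20 against −1.10, −1.02 and −1.32 (log2 ratio −2.50).

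The cell division machinery was higher in KIT+ than in NGN3+ cells. Of 58 DNA replication genes, all tested, 36 were higher (62.1%) and 2 lower (3.45%), with a median log2 ratio of 0.50. Of 52 tested genes of mitosis and the spindle 37 were higher (71.2%) and 1 lower (1.92%), with a median of 0.61. The shares over all genes tested were 17.8% higher and 17.5% lower. Mki67, the proliferation marker, stood at 2.61, 2.81 and 3.63 on NGN3+ arrays and at 4.80, 4.94 and 5.05 on KIT+ arrays (log2 ratio 1.91, adjusted p = 0.00175). Mki67 in GFRα1+ cells (mean 4.56) was nearer to the KIT+ than to the NGN3+ level. The summed signal of the replication list was 1144 to 1239 on GFRα1+, 736 to 815 on NGN3+ and 1041 to 1203 on KIT+ arrays. That of the mitosis list was 751 to 826, 512 to 584 and 751 to 879 in the same order. Rrm2, the regulated subunit of the enzyme that makes deoxyribonucleotides, stood at 1.36, 1.71 and 2.14 against 3.25, 3.37 and 3.49 (1.64), and Gmnn, the licensing inhibitor geminin, rose by 1.27. The primase gene Prim1 rose by 1.12, the helicase genes Mcm2 and Mcm5 by 0.86 and 0.80, and the sliding clamp gene Pcna by 0.90. The spindle genes Prc1, Plk1 and Top2a rose by 1.40, 1.37 and 1.19.

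Some motifs were more frequent in promoters of the mitosis and replication genes than in those of all genes. In 300-base windows, from 250 bases before to 50 after the start of a gene in the RefSeq table of build GRCm38.p6, TTTGAA on either strand, the core of the element known as CHR near genes of G2 and mitosis, was found in 31 of 44 mitosis genes with a window (70.5%). It was found in 15.1% of the 12942 tested genes with one. In the list of intercellular bridges and cytokinesis it was found in 9 of 14 (64.3%). TTCGCGC on either strand, a form of the E2F motif, was found in 8 of 47 replication genes (17.0%), against 3.14% of all, and TTTGAA was in 14.9% of them. The 250 bases upstream of the start are shown for the 4 mitosis and 3 replication genes with the largest rises among called members with a match there, with the match in capitals. They were chosen after their values were seen, and a match is a description of letters only. The mitosis genes are Mki67 (chr7:135716380-135716629, minus strand, matches at bases −116 to −111 and −98 to −93 before the start), Prc1 (chr7:80294226-80294475, plus, −30 to −25), Top2a (chr11:99024190-99024439, minus, −179 to −174 and −23 to −18) and Ube2c (chr2:164769679-164769928, plus, −29 to −24), whose product joins ubiquitin to mitotic cyclins.
Mki67: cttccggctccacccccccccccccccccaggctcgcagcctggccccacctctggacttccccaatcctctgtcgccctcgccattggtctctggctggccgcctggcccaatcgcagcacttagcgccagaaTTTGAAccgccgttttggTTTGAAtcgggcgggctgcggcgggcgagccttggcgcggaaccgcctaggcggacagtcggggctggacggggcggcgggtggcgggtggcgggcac
Prc1: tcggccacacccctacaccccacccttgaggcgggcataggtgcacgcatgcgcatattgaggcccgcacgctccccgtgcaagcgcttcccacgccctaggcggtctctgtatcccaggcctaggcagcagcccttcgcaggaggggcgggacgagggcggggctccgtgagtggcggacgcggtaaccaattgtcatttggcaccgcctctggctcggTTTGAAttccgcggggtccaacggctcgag
Top2a: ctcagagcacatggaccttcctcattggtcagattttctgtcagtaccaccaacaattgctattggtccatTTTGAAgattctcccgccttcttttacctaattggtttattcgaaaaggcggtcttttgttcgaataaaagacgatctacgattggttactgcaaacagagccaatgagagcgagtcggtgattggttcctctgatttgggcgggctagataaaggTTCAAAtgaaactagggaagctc
Ube2c: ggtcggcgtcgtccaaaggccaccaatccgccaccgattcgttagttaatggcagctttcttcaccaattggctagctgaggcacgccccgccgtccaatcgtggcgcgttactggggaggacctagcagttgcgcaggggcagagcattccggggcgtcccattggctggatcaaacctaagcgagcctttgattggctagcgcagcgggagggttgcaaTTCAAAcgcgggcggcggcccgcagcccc

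The replication genes are Orc1, a subunit of the origin recognition complex (chr4:108579204-108579453, plus strand, −27 to −21), Mcm5 (chr8:75109259-75109508, plus, −152 to −146) and the flap endonuclease gene Fen1 (chr19:10203922-10204171, minus, −34 to −28).
Orc1: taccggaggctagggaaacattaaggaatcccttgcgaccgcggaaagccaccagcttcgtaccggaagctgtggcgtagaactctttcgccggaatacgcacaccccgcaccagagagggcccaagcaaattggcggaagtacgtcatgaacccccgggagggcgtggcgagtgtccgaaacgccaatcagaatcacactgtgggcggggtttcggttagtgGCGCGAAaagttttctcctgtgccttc
Mcm5: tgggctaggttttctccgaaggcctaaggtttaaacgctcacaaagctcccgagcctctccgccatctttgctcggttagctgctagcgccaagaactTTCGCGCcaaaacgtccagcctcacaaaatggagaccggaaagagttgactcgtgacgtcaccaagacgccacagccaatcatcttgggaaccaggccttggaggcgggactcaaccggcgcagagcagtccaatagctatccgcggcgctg
Fen1: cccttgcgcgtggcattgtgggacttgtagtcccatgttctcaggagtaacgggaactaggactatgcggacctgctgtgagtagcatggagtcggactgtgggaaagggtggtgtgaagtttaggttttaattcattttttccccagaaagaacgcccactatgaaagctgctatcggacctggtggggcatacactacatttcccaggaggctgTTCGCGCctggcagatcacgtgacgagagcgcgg

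In the printed promoters a match lay within 34 bases of the start in Prc1, Top2a, Ube2c, Orc1 and Fen1, and farther away in Mki67 and Mcm5. The 4 genes of the mitosis set rose by 1.91, 1.40, 1.19 and 0.88 on the log2 scale, and those of the replication set by 0.99, 0.80 and 0.74. Over all called genes, TTCGCGC was in 4.35% of the promoters of genes higher in KIT+ cells and in 2.18% of those of lower genes, and TTTGAA was in 14.6% and 14.4%. GGGCGG, the GC box, was in 72.0% of higher and 62.0% of lower genes, and in 60.9% of all. Their median GC content was 62.0% and 59.5%. CCAAT was in 44.2% and 41.0%, and in 42.4% of all. Of the mitosis genes 68.2% held CCAAT and 79.5% GGGCGG, and of the replication genes 57.4% and 74.5%. The RA response element of 2 copies of AGGTCA spaced by 5 or by 2 bases was in none of the 12942 windows, which cover little of the sequence around a gene.

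Cyclins and their inhibitors did not move together. Of 33 tested genes of the passage from G1 into S phase 14 were higher (42.4%) and 10 lower (30.3%), against 17.8% and 17.5% over all genes tested. Without NGN3+ replicate 2 or KIT+ replicate 3, 9 were higher, and without KIT+ replicate 3, 6 were lower. Cdkn1b, an inhibitor of cyclin-dependent kinases, stood at 3.23, 2.64 and 2.42 on NGN3+ arrays and at −0.97, −1.02 and −1.25 on KIT+ arrays (log2 ratio −3.84, adjusted p = 0.000154), and its dimmer probe, not well above background on any KIT+ array, was lower as well. Ccnd1 and Ccne1, which encode cyclins of the G1 phase, rose by 1.38 and 1.28, and the transcription factor gene E2f2 rose by 2.09. Ccnd2, another D cyclin, was lower, as given above. The kinase gene Cdk4 had a log2 ratio of −0.81.

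Several meiotic genes were higher in KIT+ than in NGN3+ cells. Of 21 tested genes of meiotic initiation and cohesin 10 were higher (47.6%) and 1 lower (4.76%). Of 45 of the synaptonemal complex and recombination 21 were higher (46.7%) and 4 lower (8.89%), with 13 higher without NGN3+ replicate 2. The shares over all genes tested were 17.8% higher and 17.5% lower. Prdm9, the methyltransferase that places recombination hotspots, stood at −2.07, −2.04 and −1.77 on NGN3+ arrays and at −0.13, −0.07 and 0.25 on KIT+ arrays (log2 ratio 1.98, adjusted p = 0.000243). Meioc, needed to leave the mitotic cycle, stood at −0.40, −0.03 and 0.17 against 1.20, 1.30 and 1.67 (1.48). The meiotic cohesin genes Rec8 and Smc1b rose by 1.13 and 1.01, and the recombinase gene Dmc1 by 1.07. The summed signal of the synaptonemal list was 494 to 510 on GFRα1+, 378 to 409 on NGN3+ and 438 to 506 on KIT+ arrays. That of the initiation list was 348 to 376, 282 to 296 and 399 to 455 in the same order. Mean levels of Sycp1 and Sycp3 were 2.82 and 3.65 on GFRα1+, 2.52 and 3.35 on NGN3+ and 2.88 and 3.80 on KIT+ arrays. Spo11, which makes the meiotic double-strand breaks, was at −1.86, −1.31 and −0.95 against −1.60, −2.01 and −1.66 and did not pass (adjusted p = 0.266). Of 20 tested genes of later spermatocytes 2 were called, Mybl1 (log2 ratio −1.26) and the testis proteasome gene Psma8 (−0.52), both lower in KIT+ cells (10.0%). Without NGN3+ replicate 2 or KIT+ replicate 3, 1 was called.

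Genes of the piRNA pathway and germ granules, which silence transposons, were more often lower than higher. Of 32 listed, all tested, 16 were lower and 3 higher, with a median log2 ratio of −0.40, and 8 were lower without KIT+ replicate 3. Besides Nanos2, Nanos3 and Piwil4, the members beyond −1 were Spocd1 (0.67, 0.19 and 0.08 against −2.29, −2.32 and −2.53, log2 ratio −2.69), which is needed for piRNA-directed DNA methylation, Tdrd5 (−1.52) and the transcription factor gene Mybl1 (−1.26), which 2 of 3 KIT+ arrays measured above background. Tex15, an effector of the same methylation, rose by 0.90. Among germ cell RNA-binding proteins, Igf2bp2 and the Musashi gene Msi2 had log2 ratios of −2.86 and −1.62. In that list 16 of 54 were higher (29.6%) and 11 lower (20.4%), against 17.8% and 17.5% over all genes tested. Without NGN3+ replicate 2, 9 were higher.

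DNA methylation genes changed in both directions. Of 20 tested 7 were higher and 5 lower. The maintenance methyltransferase gene Dnmt1 stood at 2.09, 2.02 and 2.28 on NGN3+ arrays and at 2.95, 3.06 and 3.01 on KIT+ arrays (log2 ratio 0.87, adjusted p = 0.00158), its partner Uhrf1 rose by 0.76 and the chromatin remodeller gene Hells by 0.97. Of the de novo methyltransferases, Dnmt3b stood at 5.11, 4.82 and 5.04 against 5.44, 5.72 and 5.48 (log2 ratio 0.56, adjusted p = 0.0176), and its 2 other probes had ratios of 0.58 and 0.56. Dnmt3b did not pass without NGN3+ replicate 2 (0.47), KIT+ replicate 2 (0.47) or KIT+ replicate 3 (0.59). Dnmt3a, by its only probe, stood at 0.06, −0.10 and −0.36 against −0.96, −0.76 and −0.78 (log2 ratio −0.70, adjusted p = 0.00879). Their cofactor Dnmt3l had a log2 ratio of −1.38, and Tet2, which oxidizes methylcytosine, was at least 2.88-fold lower, with no KIT+ array well above background. Of 23 genes of H3K9 methylation and HP1, 5 were higher and 6 lower (3 lower without KIT+ replicate 3), and 8 of 33 Polycomb and H3K27 genes were higher and 6 lower (4 higher without NGN3+ replicate 2 and 5 without KIT+ replicate 3), against 17.8% higher and 17.5% lower over all genes. The H3K9 demethylase gene Kdm3a had a log2 ratio of −1.49 and the Polycomb gene Pcgf6 −1.99.

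**Figure D5:**
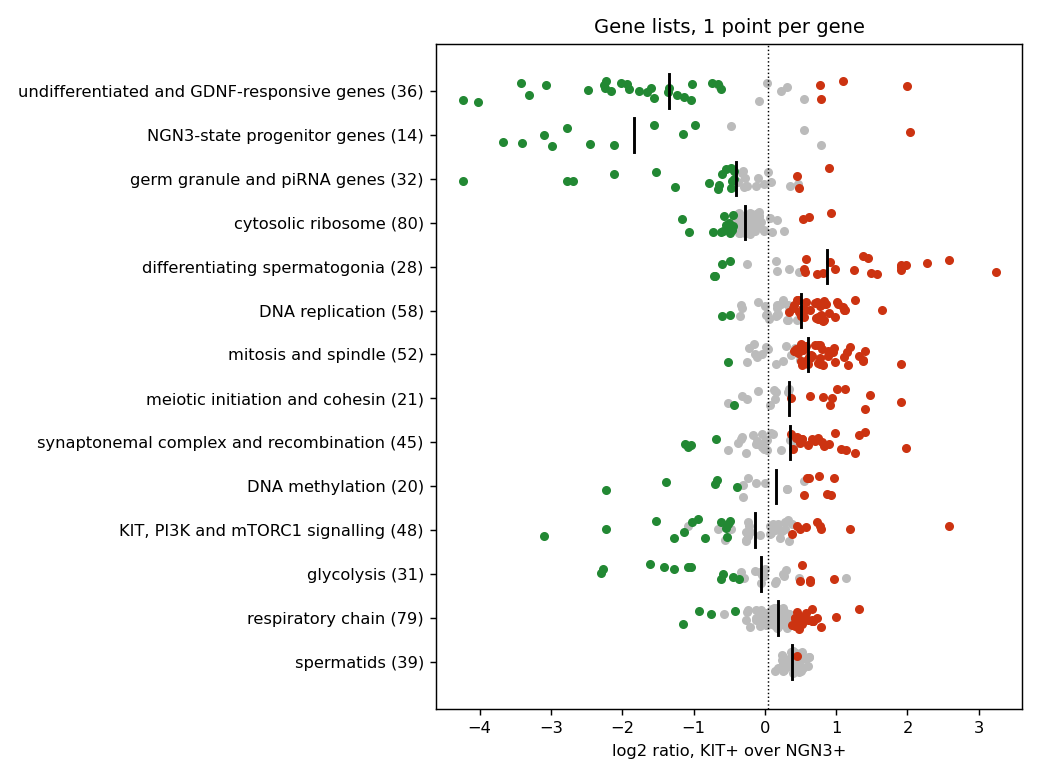
Log2 ratio of KIT+ over NGN3+ cells (horizontal axis) for each tested gene of 14 lists (vertical axis, number tested in parentheses), red where higher, green where lower and grey where not called, with a bar for each list's median and a dotted line for the median of all genes (0.05). The undifferentiated and NGN3-state lists centre at −1.35 and −1.84, and the replication and mitosis lists at 0.50 and 0.61.

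Among genes of energy metabolism, glucose uptake and respiration are given in turn. Of 31 tested glycolysis genes 11 were lower (35.5%) and 5 higher (16.1%), against 17.5% and 17.8% over all genes tested. The glucose transporter gene Slc2a1 stood at 3.11, 2.84 and 2.44 on NGN3+ arrays and at 0.44, 0.51 and 0.52 on KIT+ arrays (log2 ratio −2.30, adjusted p = 0.000243), Pdk1, a kinase that holds pyruvate back from the mitochondria, had a ratio of −2.27, and the pyruvate kinase gene Pkm −1.27. Hk2, a hexokinase gene, rose by 0.63. Without NGN3+ replicate 2, KIT+ replicate 2 or KIT+ replicate 3, 7 of the glycolysis genes were lower, and without NGN3+ replicate 2 or KIT+ replicate 2, 3 were higher. Of 79 tested respiratory chain genes 20 were higher (25.3%) and 4 lower (5.06%), with a median log2 ratio of 0.19. The higher count was 10 without NGN3+ replicate 2, 13 without KIT+ replicate 2 and 12 without KIT+ replicate 3. The complex I gene Ndufa1 rose by 1.32, and Ndufb11, also of complex I, had a log2 ratio of −1.14.

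Of 80 cytosolic ribosome genes 14 were lower (17.5%) and 3 higher (3.75%), with a median log2 ratio of −0.27. Over all genes tested 17.5% were lower and 17.8% higher, so the lower count was at the general share. It was 3 to 5 without NGN3+ replicate 1 or 2 or KIT+ replicate 1 or 3, and 24 to 29 under normexp, quantile or another percentile scaling. Of 57 tested genes of ribosome biogenesis 11 were lower (19.3%, near the general share) and 5 higher (8.77%). The higher count was 1 without NGN3+ replicate 2, 2 without KIT+ replicate 3 and 3 without NGN3+ replicate 3 or KIT+ replicate 1 or 2, and the lower count was 3 to 5 without NGN3+ replicate 1 or 2 or KIT+ replicate 1 or 3. Cholesterol synthesis genes were called in 5 of 28 cases, 4 of them higher (14.3% of the 28). Without NGN3+ replicate 2 or KIT+ replicate 2, 2 were higher. In the list of KIT, PI3K and mTORC1 signalling, 9 of 48 tested genes were higher (18.8%, near the general share), Kit itself among them. Another 13 were lower (27.1%), and 5 were higher without NGN3+ replicate 2. Foxo1, a transcription factor that PI3K signalling keeps out of the nucleus, stood at 5.44, 5.16 and 4.98 on NGN3+ arrays and at 4.07 ± 0.16 (SD, n = 3) on KIT+ arrays (log2 ratio −1.13, adjusted p = 0.00189). The PI3K catalytic subunit gene Pik3cd had a log2 ratio of −2.23, the mTORC1 scaffold gene Rptor −0.94, and Rps6kb1, the kinase of ribosomal protein S6, rose by 0.74.

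Calls among genes for receptors and adhesion molecules went in both directions. Of 57 tested growth factor receptor genes 14 were higher (24.6%), again with Kit, and 18 lower (31.6%). The shares over all genes tested were 17.8% and 17.5%. The Hedgehog receptor gene Ptch1 stood at 1.68, 1.40 and 1.08 on NGN3+ arrays and at −2.12, −2.39 and −2.43 on KIT+ arrays (log2 ratio −3.70), and the WNT receptor gene Fzd2 at 2.79, 2.40 and 2.18 against −0.80, −0.85 and −0.84 (−3.29). The neurotrophin receptor gene Ntrk3 and the FGF receptor gene Fgfr3 rose by 1.88 and 1.28. Of 45 adhesion and migration genes tested 15 were lower and 9 higher (5 higher without NGN3+ replicate 2). E-cadherin, Cdh1, stood at 0.22, −0.24 and −0.25 against −1.86, −1.65 and −2.04 (log2 ratio −1.76, adjusted p = 0.000545), and the tight junction gene Ocln had −2.48. Cxcl12, which attracts cells bearing the receptor CXCR4, stood at 3.38, 2.90 and 2.36 against −0.82, −1.13 and −0.74 (log2 ratio −3.77).

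Besides Esr1, 9 of the 27 tested nuclear receptor and steroid response genes were lower, among them Nr5a2 (0.52, 0.42 and 0.03 against −1.56, −1.70 and −1.85, log2 ratio −2.03), and 5 were higher, led by the germ cell nuclear factor Nr6a1 (0.93). With Esr1 37.0% of this list were lower and 18.5% higher, against 17.5% and 17.8% over all genes tested. Without KIT+ replicate 3, 5 were lower in all, and without NGN3+ replicate 2, KIT+ replicate 2 or KIT+ replicate 3, 1 was higher. Of the 31 tested apoptosis regulators 9 were higher (29.0%), with Bok and Casp8 at 1.46 and 1.45, and 7 were lower (22.6%). The lower count was 3 without NGN3+ replicate 1 or 2, 4 without KIT+ replicate 1 and 2 without KIT+ replicate 3. Of the 15 tested genes of intercellular bridges, which join dividing germ cells, 9 were higher, and 3 without NGN3+ replicate 2 or KIT+ replicate 3. Among them the centralspindlin motor gene Kif23 rose by 1.11, while Tex14, which keeps the bridge open, was at −0.15 (adjusted p = 0.393).

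Among 63 tested transcription factor genes of the germ line 25 were lower (39.7%) and 16 higher (25.4%), against 17.5% and 17.8% over all genes. Without NGN3+ replicate 2 or KIT+ replicate 3, 10 were higher. Foxc2, a forkhead gene of quiescent spermatogonia, and Prdm14, of primordial germ cells, had log2 ratios of −3.34 and −2.27 (Prdm14 above background on 1 of 3 KIT+ arrays), and the LIM homeobox gene Lhx8 stood at 0.70, 0.72 and 1.18 on NGN3+ arrays and at 2.58, 2.91 and 2.33 on KIT+ arrays (log2 ratio 1.74, adjusted p = 0.000883). Of 31 tested stress and immediate early genes 12 were lower (38.7%) and 5 higher (16.1%). Egr1, an immediate early factor, had a log2 ratio of −3.31 and the heat shock gene Hspa1a −2.19, while Gadd45b, a gene of the DNA damage response, rose by 1.66.

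Of 1039 tested genes with a probe on the X chromosome 203 were higher (19.5%) and 196 lower (18.9%), against 17.9% and 17.6% of 22779 on autosomes. The median log2 ratios were 0.09 and 0.05. Protein-coding genes (15290 tested) were higher in 3165 and lower in 3071 cases, and of 840 tested lncRNA genes 98 were higher and 115 lower. The shares over all genes tested were 17.8% higher and 17.5% lower.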

How the data were processed

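Per the labels and the study's methods, RNA of sorted cells was hybridised in 1 colour to Agilent mouse arrays, and signals were extracted with Agilent Feature Extraction (10.7.3.1 in the submitters' processing notes, 10.7.1.1 in the headers of these 6 arrays). The deposited log2 values place 0 at the 75th percentile of an array over the 55821 probes of the table, with 75% of values at or below 0 on each array; against the scanner files, the authors' values of every probe differed by 1 constant per array, to within 0.01. From the deposited intensity columns of the scanner files the flags for probes well above background were taken, and the intensities gave the alternatives. Of 55681 probes for 36315 gene names, the brightest of a gene's probes over the 6 arrays stood for it. A gene was not tested where that probe failed the background filter. The 6 arrays were fitted with limma 3.58.1 in R 4.3.3 (lmFit, eBayes) without covariates, with p adjusted by the Benjamini-Hochberg method over all 24119 genes tested. The 3 samples of a fraction came from different animals per the methods, which do not say whether KIT+ and NGN3+ samples shared animals. With 3 arrays per fraction the precision is limited. A gene not well above background on any array of the dimmer fraction has a bound, the brighter fraction's mean against, per array, the higher of the lowest signal well above background and the probe's own. The script was tested on simulated data.

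The comparison, the 37 gene lists and the tests were chosen with earlier results of these data known. Genes named are the 15 largest rises and falls that passed, had a RefSeq symbol, were above background on all 6 arrays and did not overlap, the 10 largest of each by bound, the 4 markers, genes the study examined, up to 6 members per list and direction with the smallest adjusted p, and members that define a cell type. A few genes that the rule names, 1 of them among the largest rises, are not reported here. Gene symbols and promoter windows came from RefSeq (GRCm38.p6), which held 23606 of the gene names and windows of 12942 tested genes. The alternatives were the scanner signal, normexp, quantile normalization, another percentile, no or a stricter filter, a floor, more arrays in the fit, the mean of probes, the methods' test, a replicate block, and leaving out each array.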

Additional observations from a re-analysis of the deposited data

How the results depend on the processing

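Kit, Nanos2, Nanos3 and Stra8 kept their direction and passed under every alternative run, with log2 ratios of 2.34 to 2.90, −4.39 to −3.54, −2.96 to −2.60 and 1.78 to 2.18. No called gene named here changed direction under any of them, and 302 of 381 passed in all. Leaving out 1 array gave 2607 to 3748 higher and 3007 to 3996 lower genes, the fewest higher without NGN3+ replicate 2 (2607) and KIT+ replicate 3 (2781), with fewer samples in each fit. Without a filter on dim probes 2982 were higher and 3405 lower, over 36315 genes. Quantile normalization gave 4690 and 4766, another percentile 4333 and 4907, normexp 4572 and 4344, and the methods' t-test 3807 and 3377 after adjustment and 5397 and 4816 before it.

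Deviations of same-numbered arrays from their fraction means correlated at −0.29, −0.41 and 0.16. KIT+ replicates 1, 2 and 3 correlated best with NGN3+ replicates 2, 1 and 3 (0.33, 0.44 and 0.16). Deviations from a mean of 3 arrays are bound to each other, so these values cannot decide whether samples of the fractions were paired. With the replicate number as a block 2722 genes were higher and 3243 lower. A gene below background in a fraction has only a bound.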

Other observations

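The following gene families were chosen after their values were seen and carry no test of the family. Of 20 tested Hox genes, homeobox factors of body patterning, 14 were lower in KIT+ than in NGN3+ cells and 1 was higher, with a median log2 ratio of −1.48 against 0.05 over all genes tested. Hoxc4 stood at 1.19, 0.66 and 0.65 on NGN3+ arrays and at −2.28, −2.62 and −2.99 on KIT+ arrays, a log2 ratio of −3.47. Hoxb2 stood at 0.66, 0.33 and 0.25 against −2.40, −2.47 and −2.70, a log2 ratio of −2.93. The lower members came mostly from the Hoxb cluster, of which Hoxb1 to Hoxb8 and Hoxb13 were lower. Hoxb9 was the exception, at −4.30, −4.24 and −3.47 against −2.94, −2.75 and −2.77 (log2 ratio 1.18). The second probe of Hoxb3 gave −1.85 and did not pass.

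Of 33 tested genes for clustered core histones, which package newly made DNA, 22 were called and all of these were higher in KIT+ cells, with a family median log2 ratio of 0.90. H2ac1, a testis-specific histone gene, stood at 0.04, 0.40 and 0.85 on NGN3+ arrays and at 2.41, 2.90 and 2.79 on KIT+ arrays, a log2 ratio of 2.27. H2bc3 and H2bc1 had log2 ratios of 1.87 and 1.74. Near-identical histone copies can share signal on a probe, so the members are not independent. Of 31 tested Fox genes 13 were lower and 6 higher, of 18 Rhox genes 2 were lower and 5 higher, and of 352 Zfp genes 82 were lower and 76 higher. Over all genes tested 17.5% were lower and 17.8% higher.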
